A study of Mus musculus with 8 samples.

Results

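Histone genes in 2 classes, the replication-linked genes and the variant genes, were examined in RNA-seq libraries of mouse lymph node CD8 T cells sorted as positive for Ly6C and CXCR3. Members were all listed genes whose symbol starts with Hist1h, Hist2h, Hist3h or Hist4h (replication-linked) or with H2af, H3f or H1f (variant), and 36 of the 13245 genes of the table met this. The replication-linked class had 27 genes, of 67 protein-coding genes named in this way in the GENCODE M21 annotation. The variant class had 9, of which 8 are protein-coding, of 15 in the annotation, and the other is H3f3aos, an antisense RNA that overlaps H3f3a and encodes no histone. One group of 4 libraries came from B6 (C57BL/6, wild-type) mice and the other group of 4 from CD103Tg mice, which the submitters describe as overexpressing CD103, an integrin chain (alpha E) whose gene is Itgae. The labels give no age or treatment, do not name the promoter that drives the transgene or the cells it acts in, and do not say whether replicates were separate animals or pools, so a p-value here reflects the spread of these libraries, which may be technical.

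Histone proteins wrap DNA into nucleosomes, with H2A, H2B, H3 and H4 in the core and the linker histone H1 outside it. The replication-linked genes lie in clusters, are switched on in S phase, and make mRNAs that end in a short stem-loop in place of a poly(A) tail, which the stem-loop binding protein (Slbp) holds during processing and translation. Variant genes mostly lie outside these clusters, make chiefly polyadenylated mRNAs through the whole cell cycle, and supply nucleosomes outside replication. The SMART-Seq v4 kit used here primes cDNA from poly(A) tails, so in such libraries the mRNAs of the replication-linked genes are seen mainly where they carry a tail.

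The stem-loop is shown because it marks the replication-linked mRNA end, and the members are named by gene cluster and not by that end. A stem-loop of 6 pairs and 4 loop bases, with a stem that runs GGNNCT on one side and AGNNCC on the other (N any base, each paired with its partner) and a loop of TTTN, was searched on the sense strand of the GENCODE M21 transcripts (GRCm38). It was found in 50 of 55450 annotated genes (0.0902%), in 24 of the 27 replication-linked members and in 1 of the 9 variant members, H2afx. Of the replication-linked members, Hist1h1b, Hist1h2bc and Hist2h2be had no match in their annotated transcripts. The capitals mark the stem and lower case the loop, 5′ to 3′.
14 H1, H2A and H2B members: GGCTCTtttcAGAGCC
Hist1h4c, Hist1h4d, Hist1h4h, Hist1h4n and Hist4h4: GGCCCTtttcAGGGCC
Hist1h4i and Hist2h4: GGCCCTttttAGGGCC
Hist1h3e and Hist1h3f: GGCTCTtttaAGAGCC
Hist2h2ac: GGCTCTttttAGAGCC
H2afx: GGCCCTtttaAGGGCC
The stem differed between the H4 members and the H1, H2A, H2B and H3 members, and H2afx, an H2A gene, carried the stem of the H4 genes. The most common form was shared by 14 members, among them 3 of the 4 replication-linked genes that differed between the groups (Hist1h2ap, Hist1h2ae and Hist3h2a).

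Promoters were matched in RefSeq (GRCm38.p6) for 30 members, 23 replication-linked and 7 variant. The 250 bases before the RefSeq start of the 4 replication-linked genes that differed are printed, so that the gene that was lower can be set beside those that were higher. Capitals mark the CCAAT box, the TATA box (searched as TATAAA), the octamer (ATTTGCAT) and the H1 box (AAACACA), each on either strand.
Hist1h2ap, chr13:21833476-21833725, minus strand: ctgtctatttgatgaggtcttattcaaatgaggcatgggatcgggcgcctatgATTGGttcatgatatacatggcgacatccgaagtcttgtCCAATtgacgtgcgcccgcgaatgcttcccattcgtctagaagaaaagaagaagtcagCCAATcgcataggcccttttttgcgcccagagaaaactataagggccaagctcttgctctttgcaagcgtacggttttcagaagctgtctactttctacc
Hist1h1b, chr13:21780626-21780875, minus strand: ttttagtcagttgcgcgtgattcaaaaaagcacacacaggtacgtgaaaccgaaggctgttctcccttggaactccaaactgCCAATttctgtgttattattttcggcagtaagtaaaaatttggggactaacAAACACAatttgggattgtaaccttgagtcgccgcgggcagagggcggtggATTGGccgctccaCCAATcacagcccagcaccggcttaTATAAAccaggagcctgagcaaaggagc
Hist1h2ae, chr13:23571221-23571470, minus strand: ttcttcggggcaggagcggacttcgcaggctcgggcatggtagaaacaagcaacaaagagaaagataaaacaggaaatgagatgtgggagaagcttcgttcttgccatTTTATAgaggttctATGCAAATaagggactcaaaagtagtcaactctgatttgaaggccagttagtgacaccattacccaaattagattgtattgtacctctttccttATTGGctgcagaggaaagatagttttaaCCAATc
Hist3h2a, chr11:58954435-58954684, plus strand: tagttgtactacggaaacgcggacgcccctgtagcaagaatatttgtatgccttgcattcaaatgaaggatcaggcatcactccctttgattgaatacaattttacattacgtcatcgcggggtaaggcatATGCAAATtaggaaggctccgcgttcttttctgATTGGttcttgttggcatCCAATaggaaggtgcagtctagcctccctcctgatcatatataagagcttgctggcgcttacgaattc
CCAAT was in all 4 windows, in 19 of 23 replication-linked and 5 of 7 variant windows, and in 33.8% of 32851 RefSeq promoters of the same length. TATAAA was in 11 of 23 and 1 of 7, against 12.4% of all promoters. The octamer was in 5 of 23 and 1 of 7, against 1.6%, and it was present both in Hist1h2ae, which was higher, and in Hist3h2a, which was lower. AAACACA was in all 4 H1 windows, in none of the other 19 replication-linked windows and in 1 of 7 variant windows, against 6.25% of all. The E2F-type motif TTTGGCGC was in 0 of 23 and 0 of 7, against 0.417%. Within the replication-linked class, CCAAT was in all 9 H2A windows and in 2 of 6 H4 windows. Hist1h2ae and Hist1h2bg lie head to head on opposite strands of chromosome 13 and their windows share 179 bases. The octamer and the TATAAA marked for Hist1h2ae lie in that shared stretch and were counted in both windows. Hist1h2ae averaged 1.23 ± 0.677 CPM in B6 and 3.76 ± 1.30 CPM in CD103Tg (SD, n = 4 each), whereas Hist1h2bg was at 0.354 ± 0.139 and 0.553 ± 0.176 CPM.

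Values are CPM, read counts set relative to a library size that was scaled by TMM, and the estimated reads over the listed genes were 50187279 to 56371476 per library. The level of Itgae, the check of the transgene, was 76.05 ± 65.47 CPM in B6 (37.47 to 173.9) and 4460 ± 860.5 CPM in CD103Tg (3469 to 5509). The test was limma on log2(CPM + 1), for genes whose 8 libraries averaged 1 CPM or more, and a gene was called at a Benjamini-Hochberg adjusted p under 0.05 over all 11503 genes tested. Fold changes are on that log2(CPM + 1) scale, CD103Tg minus B6, with their SE. Of all genes tested 31.2% were called, 17.4% higher and 13.8% lower in CD103Tg, 31.0% had groups that did not overlap, and the median log2 fold change was -0.01.

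CD103Tg cells had more mRNA of all 5 H2A variant genes, by most for H2afx (1.80-fold, the ratio of mean CPM), and of 3 replication-linked genes, Hist1h2ap (2.76-fold), Hist1h1b (6.19-fold) and Hist1h2ae (3.07-fold). They had less of Hist3h2a (0.55-fold). In the replication-linked class 3 of 19 tested genes were called higher, 1 was called lower and 15 did not pass, with a median log2 fold change of -0.18 over the tested genes. In the variant class 5 of 8 were called higher, 0 lower and 3 did not pass, with a median of 0.24. The share of replication-linked genes called, 21.1%, was below the 31.2% of all genes, and the share of variant genes, 62.5%, was above it. These shares compare genes at unlike levels, since the replication-linked genes were lower and the pseudocount understates changes of low genes. At a minimum mean of 5 CPM, 7 of the 11 members tested were called, beside 1676 genes higher and 1302 lower over the whole table. The 31.2% of all genes belongs to the minimum of 1 CPM, and no such share is given for 5 CPM. Of the replication-linked genes 1 was then higher and 1 lower, and 5 variant genes were higher. The medians were then 0.40 for replication-linked and 0.24 for variant genes. That 0.40 was the value of Hist2h2aa1, which was not called. Besides it, only Hist1h2ap (1.40) and Hist3h2a (-0.77) of the replication-linked class were still tested. The difference between the classes was not tested. A further 9 members fell under the filter and were not tested, Hist1h1d, Hist1h2ag, Hist1h2ao, Hist1h2bg, Hist3h2ba, Hist1h3e, Hist1h3f, Hist1h4h and H3f3aos. The counts of called genes depend in part on this filter. Hist1h1b (0.32 ± 0.151 CPM in B6 and 1.98 ± 0.789 CPM in CD103Tg) passed it only through the CD103Tg libraries. Hist3h2ba (1.38 ± 0.38 and 0.491 ± 0.135 CPM) fell under it through its low CD103Tg values. In bulk samples, fewer cells that make an mRNA and less of it per cell cannot be told apart.

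**Figure D1:**
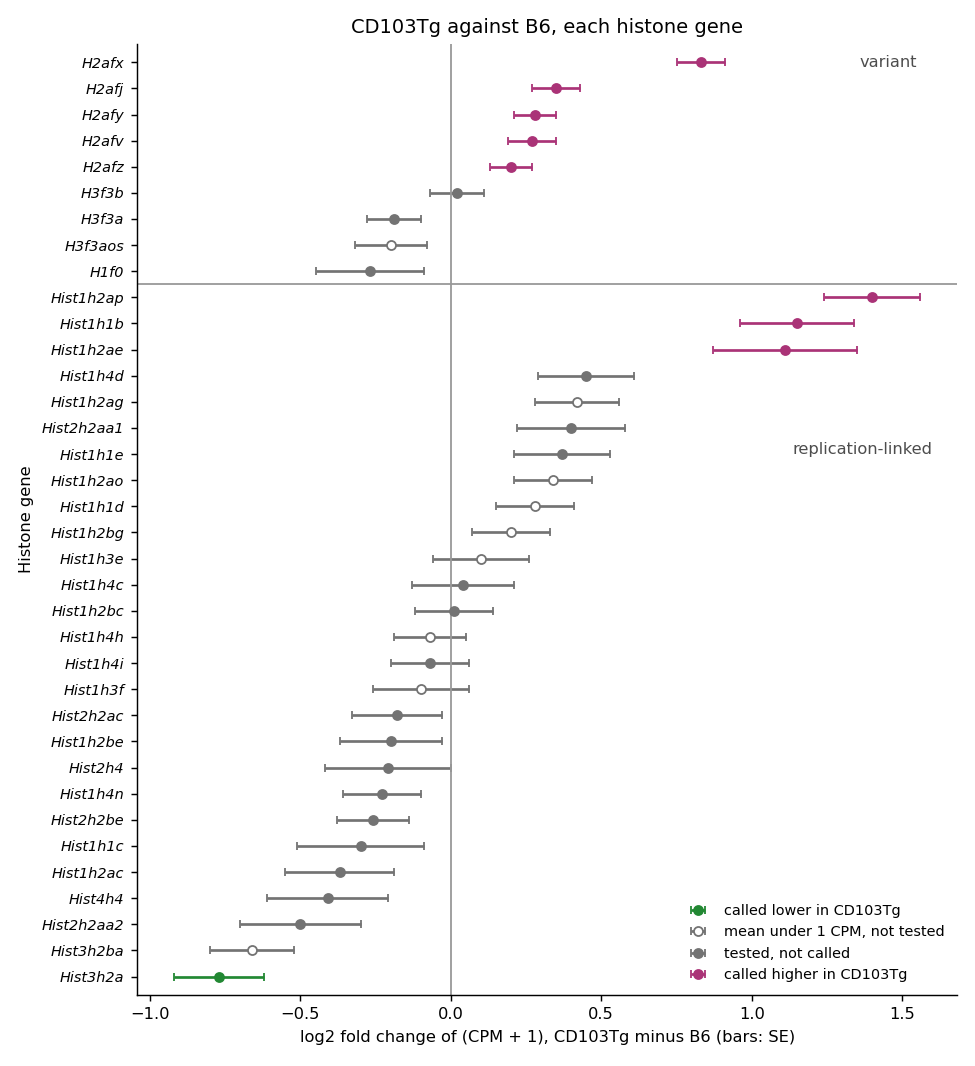
log2 fold change of (CPM + 1), CD103Tg minus B6, of each of the 36 histone genes (horizontal axis; bars are the SE of the fit, n = 4 libraries per group), with variant genes above the line and replication-linked genes below it. All 5 called variant genes lie between 0.20 and 0.83, and the 4 called replication-linked genes are at 1.40, 1.15, 1.11 and -0.77. Open points are genes with a mean under 1 CPM, which were not tested and are drawn from the fit without a filter.

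The 2 classes differed in level far more than the groups did. The 27 replication-linked genes summed to 68.70 to 90.32 CPM in the B6 libraries and 86.80 to 101.3 CPM in the CD103Tg libraries, which is 0.00762% and 0.00909% of the signal. The 8 protein-coding variant genes summed to 2180 to 2693 CPM in B6 and 2444 to 2618 CPM in CD103Tg, or 0.24% and 0.248% of the signal. The sums of neither class separated the groups. Per kilobase of annotated exon, H2afz (306.1 in B6 and 351.8 in CD103Tg), H3f3b (221.1 and 222.3) and H3f3a (194.3 and 169.2 CPM per kb) were the highest histone genes. H2afy (46.76 and 56.93), H2afv (37.98 and 45.68) and H2afj (37.80 and 48.48 CPM per kb) came next in B6. Hist1h2ap was the highest replication-linked gene, at 25.05 CPM per kb in B6, below H2afx (28.10), and 69.22 in CD103Tg, above H2afy. In CD103Tg, H2afx (50.45 CPM per kb) also stood above H2afj and H2afv. The next replication-linked gene was Hist2h2aa1, at 8.71 and 11.76 CPM per kb. H1f0, the lowest protein-coding variant gene, was at 4.74 and 3.83 CPM per kb.

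**Figure D2:**
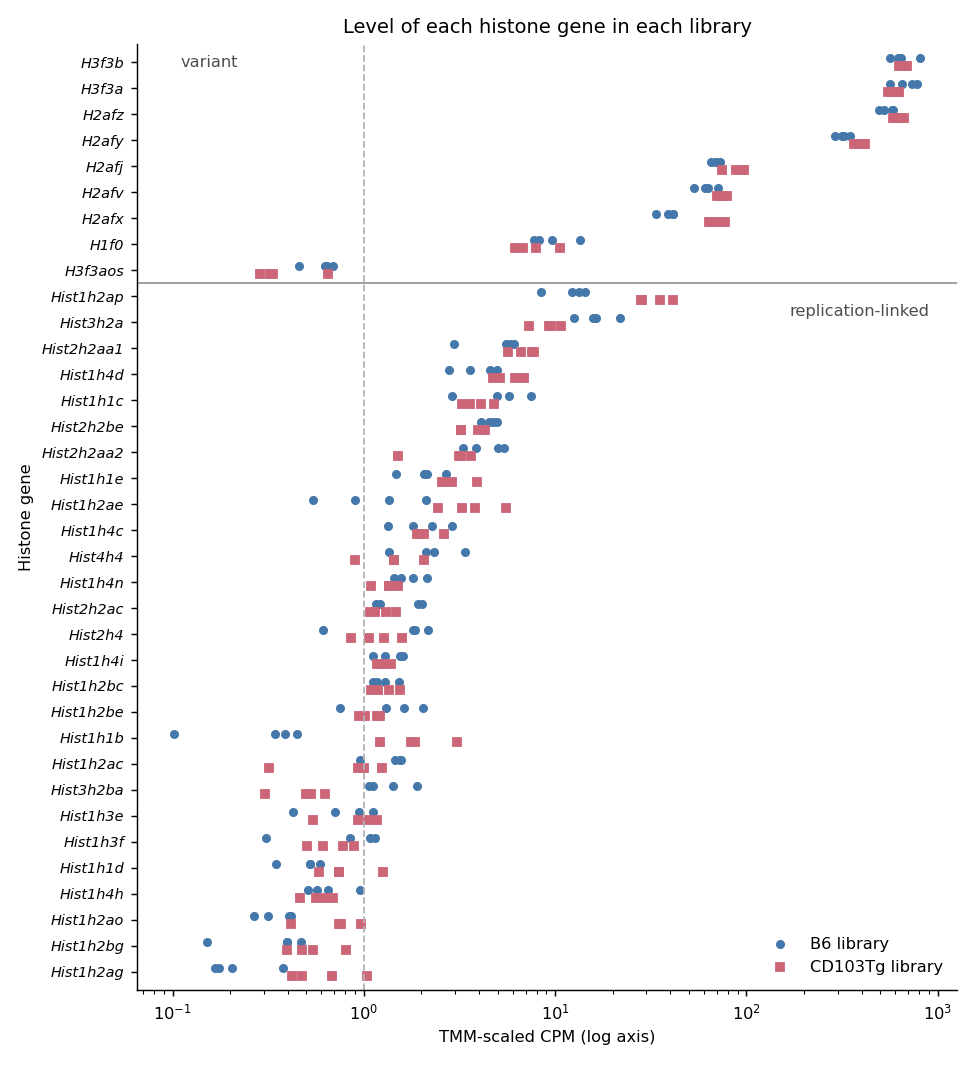
TMM-scaled CPM (log axis) of the 36 histone genes in each library, with circles for the 4 B6 and squares for the 4 CD103Tg libraries, and the dashed line at the filter's 1 CPM. Variant genes other than H3f3aos reach up to 808.6 CPM, whereas no replication-linked gene exceeds 41.47 CPM.

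Of the linker histones, Hist1h1b, which encodes H1.5 (chromosome 13, 21779883 to 21780625), was at 0.385, 0.448, 0.345 and 0.102 CPM in B6 libraries 1 to 4 and at 1.77, 1.86, 1.21 and 3.08 CPM in CD103Tg libraries 1 to 4. The groups did not overlap, and B6 library 4 was lowest and CD103Tg library 4 highest. These values rest on 6 to 23 estimated reads in B6 and 65 to 161 in CD103Tg. Its log2 fold change was 1.15 ± 0.19 (limma adjusted p = 0.000966). It passed the filter only through the CD103Tg libraries, and its mean fell below 1 CPM when CD103Tg library 4 was left out. Without that library and without a filter the log2 fold change was 0.98 ± 0.15 (limma adjusted p = 0.000706). Voom on the estimated reads, which adds no pseudocount of 1 CPM, gave 2.72 ± 0.48. The other tested H1 genes did not pass. Hist1h1e, which encodes H1.4, was at 2.07, 2.13, 2.69 and 1.47 CPM in B6 and 2.88, 3.89, 2.55 and 2.59 CPM in CD103Tg, with groups that overlapped through B6 library 3 (0.37 ± 0.16, limma adjusted p = 0.102). Hist1h1c, H1.2, averaged 5.29 ± 1.92 and 3.94 ± 0.674 CPM, with B6 library 2 lowest of its group, and was called lower without that library (-0.52 ± 0.16, limma adjusted p = 0.0361). The untested Hist1h1d, H1.3, averaged 0.495 ± 0.105 and 0.83 ± 0.296 CPM.

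Of the H2A genes of the replication-linked class, 2 were called higher and 1 lower. Hist1h2ap (chromosome 13, 21833026 to 21833507) was at 12.24, 14.26, 13.33 and 8.45 CPM in B6 and at 28.39, 35.37, 28.23 and 41.47 CPM in CD103Tg. The lowest CD103Tg library lay well above the highest B6 library, and the log2 fold change was 1.40 ± 0.16 (limma adjusted p = 6.95e-05). Of its 50-base stretches 93.1% are also in Hist1h2ao, a near-identical gene of the same chromosome, so the authors' counting divided reads between the pair. Their sum was 12.42 ± 2.54 CPM in B6 and 34.09 ± 6.25 in CD103Tg, a ratio of 2.74, so the call did not turn on that division. Hist1h2ae (chromosome 13, 23570517 to 23571220) was at 0.9, 1.35, 2.11 and 0.544 CPM in B6 and 3.27, 3.80, 2.45 and 5.54 CPM in CD103Tg. The groups were separate by a small margin, between B6 library 3 and CD103Tg library 3 (1.11 ± 0.24, limma adjusted p = 0.00472), and 43.2% of its stretches are also in other genes, mostly the related Hist1h2ad.

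Hist3h2a (chromosome 11, 58954685 to 58956830) went the other way. It was at 15.68, 12.56, 21.84 and 16.40 CPM in B6 and at 9.52, 7.30, 10.73 and 9.27 CPM in CD103Tg, all CD103Tg libraries below all B6 libraries (-0.77 ± 0.15, limma adjusted p = 0.0031). Its neighbour Hist3h2ba, an H2B gene on the same strand, was at 1.12, 1.07, 1.90 and 1.42 CPM in B6 and 0.63, 0.527, 0.5 and 0.306 CPM in CD103Tg. It was also lower in every CD103Tg library, and its mean was under the filter. Fitted without a filter it had -0.66 ± 0.14 (limma adjusted p = 0.00405), and with the filter it was called lower when CD103Tg library 4 was left out (-0.60 ± 0.16, limma adjusted p = 0.0189). In the annotation, 33.0% of the exon bases of Hist3h2a are also exon of Trim17 on the same strand. The 3 replication-linked genes called higher are all on chromosome 13, where 19 of the 27 listed genes of the class lie and 12 were tested, and the 2 on chromosome 11 are Hist3h2a and Hist3h2ba.

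The histone genes of chromosome 3 include Hist2h2aa1 and Hist2h2aa2, 2 copies whose 50-base stretches were all found in other annotated genes as well. Hist2h2aa1 was at 2.97, 5.51, 6.12 and 5.82 CPM in B6 and 5.68, 6.59, 7.59 and 7.71 CPM in CD103Tg, whereas Hist2h2aa2 was at 5.38, 5.03, 3.85 and 3.29 CPM in B6 and 3.63, 3.14, 3.22 and 1.5 CPM in CD103Tg. The ratio of the first to the second ranged from 0.55 to 1.77 in B6 and from 1.56 to 5.14 in CD103Tg. Neither copy passed (0.40 ± 0.18 and -0.50 ± 0.20, limma adjusted p = 0.12 and 0.0871). Their sum was 9.49 ± 0.961 CPM in B6 and 9.76 ± 0.734 CPM in CD103Tg, and fitted as 1 gene it had a log2 fold change of 0.04 ± 0.10 (limma adjusted p = 0.799). The total of these 2 copies thus differed by less than the spread between libraries. Reads that the counting gave to Gm20632, Gm20633 and Gm20634, listed genes whose exons overlap those of the copies, are not in that total. Of the remaining H2A genes, Hist1h2ac (0.63-fold) and Hist2h2ac (0.79-fold) did not pass. The untested Hist1h2ag was at 0.23 ± 0.0984 CPM in B6 and 0.654 ± 0.279 in CD103Tg, with groups that did not overlap. Fitted without a filter it had 0.42 ± 0.14 (limma adjusted p = 0.0419), and 0.31 ± 0.13 (limma adjusted p = 0.0971) when CD103Tg library 4 was also left out. Hist1h2ao was at 0.351 ± 0.0723 and 0.722 ± 0.228 CPM. Summed over the 9 H2A genes, the level was 42.96 ± 5.80 CPM in B6 and 59.60 ± 6.83 in CD103Tg (1.39-fold, no overlap). Without Hist1h2ap the sum was 30.88 ± 4.73 and 26.24 ± 2.02 CPM (0.85-fold, overlapping), so the higher H2A sum in CD103Tg rested on that 1 gene.

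No H2B, H3 or H4 gene of the replication-linked class was called. Hist2h2be, an H2B gene that shares no 50-base stretch with another gene, was at 4.53, 4.99, 4.74 and 4.08 CPM in B6 and 3.23, 3.97, 4.30 and 3.22 CPM in CD103Tg, with an overlap of 1 library (-0.26 ± 0.12, limma adjusted p = 0.123). Hist1h2be was at 0.75, 2.05, 1.30 and 1.63 CPM in B6 and 1.22, 1.01, 1.17 and 0.944 CPM in CD103Tg (-0.20 ± 0.17, limma adjusted p = 0.436), and 496 of its exon bases are also exon of Hist1h1e. Hist1h2bc was at 1.27 ± 0.179 and 1.29 ± 0.203 CPM. The 5 H2B genes summed to 8.08 to 9.92 CPM in B6 and 6.62 to 7.59 CPM in CD103Tg (0.79-fold, no overlap). That separation needed the untested Hist3h2ba (1.38 ± 0.38 and 0.491 ± 0.135 CPM), without which the groups overlap. It did not rest on that gene alone, since Hist2h2be was also lower on average (4.58 ± 0.386 and 3.68 ± 0.542 CPM). The direction of the H2B sum was opposite to that of the H2A sum with Hist1h2ap and the same as that of the H2A sum without it (0.85-fold). The H3 genes Hist1h3e (0.796 ± 0.298 and 0.925 ± 0.273 CPM) and Hist1h3f (0.846 ± 0.38 and 0.694 ± 0.17 CPM) were not tested, and their sum was 1.64 ± 0.629 and 1.62 ± 0.315 CPM.

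The H4 genes, all of which encode the same core histone, summed to 13.77 ± 2.51 CPM in B6 and 13.72 ± 0.991 CPM in CD103Tg. Hist1h4d was the H4 gene with the smallest p. It was at 4.57, 3.59, 4.99 and 2.78 CPM in B6 and 6.89, 5.17, 4.76 and 6.18 CPM in CD103Tg, where only library 3 fell within the B6 range (0.45 ± 0.16, limma adjusted p = 0.0551), and it was called without B6 library 3 (limma adjusted p = 0.0343). Hist4h4, the lone H4 gene of chromosome 6, was at 2.33, 1.36, 2.11 and 3.36 CPM in B6 and 2.07, 1.44, 1.43 and 0.9 CPM in CD103Tg (-0.41 ± 0.20, limma adjusted p = 0.154). Hist1h4c, Hist1h4i, Hist1h4n, Hist2h4 and the untested Hist1h4h had ratios of 1.03, 0.91, 0.76, 0.74 and 0.87, all with groups that overlapped.

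**Figure D3:**
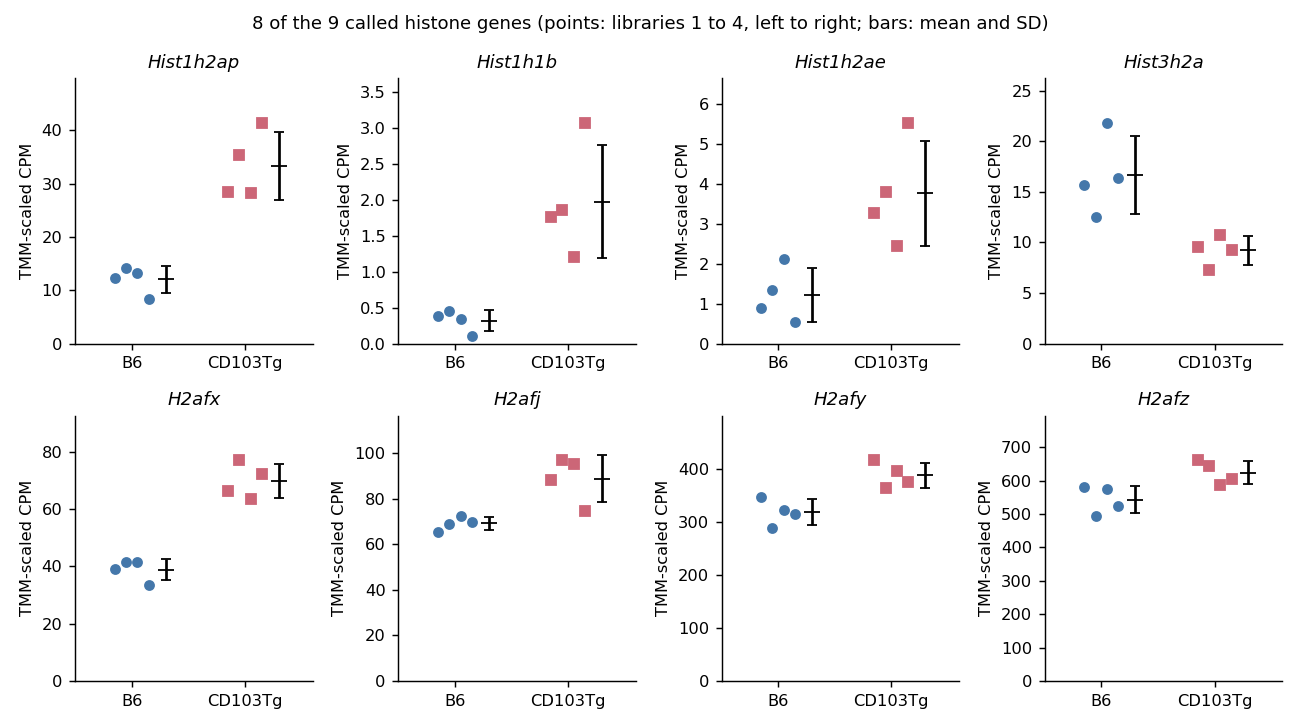
TMM-scaled CPM of 8 of the 9 called histone genes in B6 (circles) and CD103Tg (squares), libraries 1 to 4 from left to right, with the mean and SD (n = 4) as the bar beside each group. Groups do not overlap in any panel, and Hist3h2a is the 1 gene that is lower in CD103Tg. The ninth, H2afv, is the called gene whose groups overlap.

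In the variant class the gene with the strongest change was H2afx (chromosome 9, 44334694 to 44336077), whose protein, H2A.X, is phosphorylated beside DNA breaks. It was at 38.95, 41.52, 41.54 and 33.56 CPM in B6 and 66.21, 77.18, 63.68 and 72.24 CPM in CD103Tg. The groups were far apart (0.83 ± 0.08, limma adjusted p = 2.93e-05), and H2afx was also the only variant gene with a stem-loop, followed in its annotated transcript by 822 more bases. H2afj, which encodes H2A.J, was at 65.59, 68.92, 72.60 and 69.70 CPM in B6 and 88.11, 97.05, 95.40 and 74.48 CPM in CD103Tg. Library 4 of CD103Tg lay just above the B6 range and the other 3 well above it (0.35 ± 0.08, limma adjusted p = 0.00705). H2afy, which encodes macroH2A1, an H2A with a large extra domain, was at 347.1, 289.0, 322.0 and 315.3 CPM in B6 and 416.6, 363.0, 395.0 and 375.8 CPM in CD103Tg (0.28 ± 0.07, limma adjusted p = 0.00699), again with no overlap.

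The H2A.Z genes, H2afz and H2afv, whose products mark active gene starts, rose by less. H2afz was at 581.4, 493.6, 574.4 and 525.5 CPM in B6 and 662.4, 645.7, 585.9 and 604.8 CPM in CD103Tg (0.20 ± 0.07, limma adjusted p = 0.0395), and its lowest CD103Tg library lay just above the highest B6 library. H2afv was at 63.20, 60.49, 71.17 and 53.21 CPM in B6 and 78.83, 76.27, 70.14 and 73.18 CPM in CD103Tg, where library 3 lay below B6 library 3 (0.27 ± 0.08, limma adjusted p = 0.0278). Both calls were lost without B6 library 2, B6 library 4, CD103Tg library 1 or CD103Tg library 2, and without both libraries numbered 4 (limma adjusted p = 0.0551 to 0.0746 for H2afv and 0.0752 to 0.111 for H2afz). The ratio of H2afz to H2afv was 8.07 to 9.88 in B6 and 8.26 to 8.47 in CD103Tg, and the CD103Tg ratios all lay inside the B6 range. Of the 50-base stretches of H2afz, 35.4% are also in other annotated genes, whereas H2afv shares none.

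The H3.3 genes, which encode 1 and the same replacement H3, did not pass. H3f3a was at 774.8, 653.5, 733.8 and 561.2 CPM in B6 and 626.7, 548.5, 575.3 and 620.7 CPM in CD103Tg (-0.19 ± 0.09, limma adjusted p = 0.148). It was called lower without B6 library 4, which was the lowest of its group (-0.28 ± 0.07, limma adjusted p = 0.0156), and without both libraries numbered 4. H3f3b was at 808.6, 564.7, 640.6 and 617.9 CPM in B6 and 668.9, 630.5, 689.4 and 657.0 CPM in CD103Tg, with CD103Tg inside the B6 range (0.02 ± 0.09, limma adjusted p = 0.898). Their sum was 1339 ± 183.6 CPM in B6 and 1254 ± 51.74 in CD103Tg. The linker histone variant H1f0, H1.0, which accumulates in cells that have stopped dividing, was at 13.43, 8.21, 7.75 and 9.61 CPM in B6 and 10.62, 6.14, 7.93 and 6.82 CPM in CD103Tg, with overlapping groups (-0.27 ± 0.18, limma adjusted p = 0.286). The antisense H3f3aos was at 0.604 ± 0.0997 and 0.399 ± 0.169 CPM. The library method keeps no strand, and reads in the 160 exon bases it shares with H3f3a cannot be assigned.

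The replication-linked sum was compared with other genes of S phase and mitosis. Over 36 DNA replication and S phase genes, 32 were called higher and 0 lower, where 17.4% and 13.8% of all genes tested were. Their median log2 fold change was 0.61. Their sum was 1910 to 1995 CPM in the B6 libraries and 2588 to 3603 CPM in the CD103Tg libraries (1.52-fold). Tk1, thymidine kinase, was at 4.29 ± 0.605 and 18.22 ± 3.08 CPM, and Rrm2, a subunit of ribonucleotide reductase, at 22.76 ± 4.22 and 109.6 ± 24.53 CPM. E2f1, a transcription factor of S phase entry, was at 8.93 ± 0.666 and 24.42 ± 4.51 CPM. All 10 genes of a G2 and mitosis list were called higher (4.40-fold in sum, median 2.04), among them Mki67 (9.26 ± 2.20 and 43.21 ± 10.37 CPM), Top2a (29.35 ± 6.35 and 122.1 ± 26.23 CPM) and Tpx2 (6.55 ± 1.03 and 26.67 ± 5.39 CPM). Against these, the replication-linked histone sum was 75.58 ± 9.95 CPM in B6 and 91.77 ± 6.56 in CD103Tg (1.21-fold, overlapping through B6 library 3). Without Hist1h2ap and Hist3h2a the other 25 genes summed to 46.89 ± 5.77 and 49.19 ± 0.992 CPM (1.05-fold). The libraries were primed from poly(A) tails, so the histone sum covers mainly mRNAs with a tail and need not follow the total of histone mRNA. The S phase and mitosis lists were chosen with earlier results of these data known. Their difference from the histone sum was not tested.

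**Figure D4:**
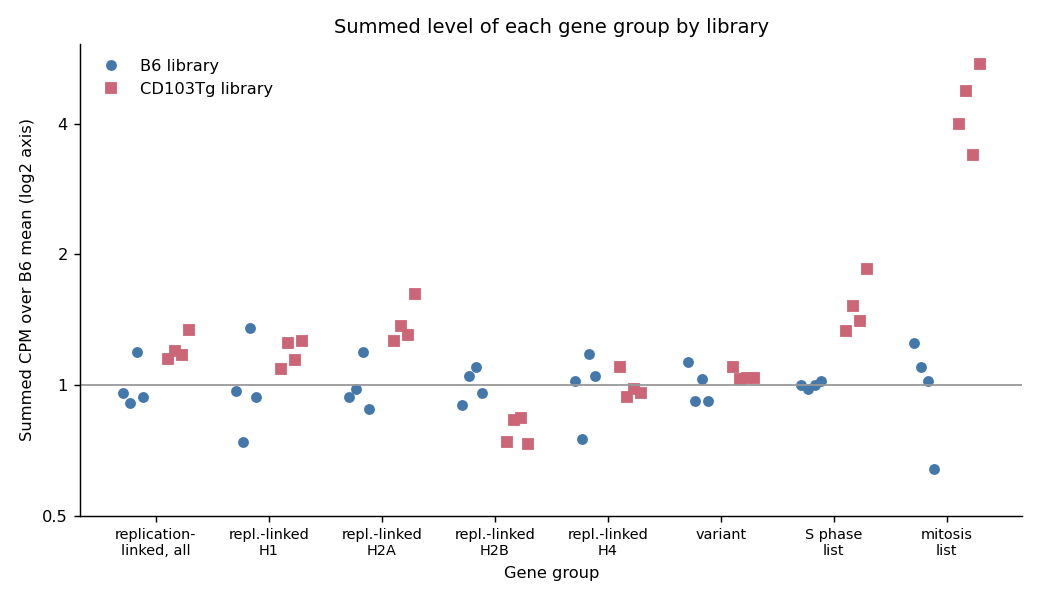
Summed CPM of each gene group in each library divided by the mean of the 4 B6 libraries (log2 axis), with circles for B6 and squares for CD103Tg, libraries 1 to 4 from left to right. The S phase sum lies at 1.33 to 1.85 and the mitosis sum at 3.38 to 5.48 in CD103Tg, the replication-linked histone sum at 1.15 to 1.34, its H2B part at 0.73 to 0.84 and the variant sum at 1.03 to 1.10.

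Among the CD103Tg libraries, Hist1h2ap, Hist1h1b and Hist1h2ae had 1 order, with library 4 highest, then 2, then 1, and library 3 lowest. The mitosis list sum had the same order, at 424.9, 369.5, 309.8 and 262.4 CPM in libraries 4, 2, 1 and 3, whereas the S phase sum had another, at 3603, 2961, 2722 and 2588 CPM in libraries 4, 2, 3 and 1. In B6, library 4 was lowest both for these 3 genes and for the mitosis sum, at 49.40 CPM against 79.30 to 96.60 CPM in the other 3, but was highest for the S phase sum, at 1995 CPM against 1910 to 1945 CPM. H2afx was highest in CD103Tg library 2 and lowest in library 3, and lowest in B6 library 4. These orders were noticed in the values and rest on 4 libraries a group, so they are given as a description.

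The factors that make and place histones were read against the 31.2% of all genes that were called. Of 16 tested genes of histone mRNA transcription and 3′ processing, 2 were called higher, 1 lower and 13 did not pass (median -0.04). Slbp, the stem-loop binding protein, was at 152.5, 156.6, 146.1 and 152.8 CPM in B6 and 206.5, 261.8, 220.2 and 284.2 CPM in CD103Tg (0.66 ± 0.09, limma adjusted p = 0.00022). Zfp473, a zinc finger protein of the same processing complex, was at 1.54 ± 0.164 and 2.97 ± 0.533 CPM (0.64 ± 0.14), and Ncbp1, of the nuclear cap-binding complex, at 188.2 ± 11.37 and 160.4 ± 7.85 CPM (-0.23 ± 0.06, limma adjusted p = 0.0113). Of 17 replication-coupled histone chaperones, 6 were called higher and 0 lower (median 0.06). The 3 with the smallest p were Chaf1a and Chaf1b, subunits of the chromatin assembly factor that deposits new H3 and H4 at replication forks, and Asf1b, which hands H3 and H4 to it. Chaf1a was at 10.19 ± 0.778 and 27.78 ± 7.96 CPM (1.33 ± 0.15), Asf1b at 29.60 ± 2.79 and 57.85 ± 10.84 CPM (0.93 ± 0.12) and Chaf1b at 31.03 ± 4.38 and 42.73 ± 3.08 CPM (0.46 ± 0.10). Of 21 chaperones and remodellers of variant histones, 5 were called higher and 2 lower (median 0.05). Oip5, which takes part in loading the centromeric H3 variant, was at 2.09 ± 0.472 and 5.91 ± 1.05 CPM (1.16 ± 0.15). Ep400, the ATPase of a complex that handles H2A.Z and H3.3, was at 144.4 ± 4.16 and 111.1 ± 14.08 CPM (-0.38 ± 0.08, limma adjusted p = 0.0042).

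Among the 24 replication-linked members with a stem-loop, the annotated transcript went on past it by 3 bases in Hist1h2ap, 151 in Hist1h2ae, 1643 in Hist3h2a and 4884 in Hist1h1d. The 8 members with at most 100 bases after the stem-loop had a median log2 fold change of 0.13 (range -0.50 to 1.40), the 16 with more than 100 had -0.09 (range -0.77 to 1.11), and the 3 with no stem-loop matched had 0.01 (range -0.26 to 1.15). The medians include genes under the filter, and the ranges of the 3 groups cover each other. The model's length is that of the annotation, and where these mRNAs ended in the cells was not measured.

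**Figure D5:**
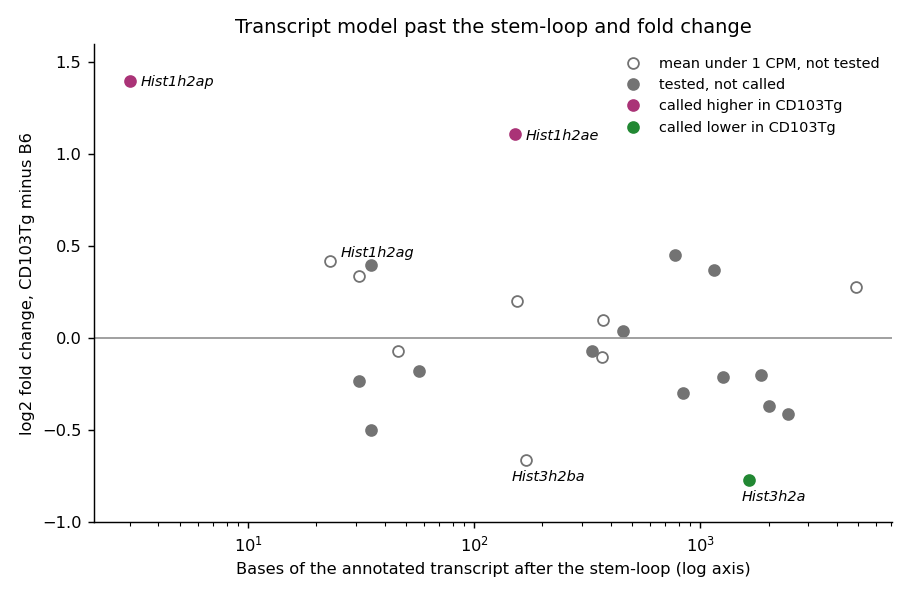
log2 fold change of (CPM + 1), CD103Tg minus B6, of the 24 replication-linked members with a stem-loop against the number of annotated transcript bases after it (log axis). The called genes lie at 3, 151 and 1643 bases, and both signs occur on either side of 100 bases.

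Only 5 of the 36 members, Hist1h1b, Hist2h2be, Hist4h4, H2afv and H3f3aos, had whole estimated reads in all 8 libraries, within 0.005 of a read, and 22 had them in none. Within 0.05 of a read, H1f0 also had whole estimates in all 8 libraries, which made 6 members. Since a fraction of a read arises where a read fitting several places is divided, values of the members outside these 6 depend on how the authors' counting shared reads. Markers of other cell types also differed between the groups, and their part in the results was not tested. Of all genes tested 17.4% were called higher. Jchain, Ebf1 and Siglech averaged 0.319, 0.0657 and 0.217 CPM in B6 and 9.46, 1.99 and 1.97 CPM in CD103Tg. These markers passed the filter only through the CD103Tg libraries, which favoured a higher call. The summed ranges of the marker lists in B6 and CD103Tg were 811.3 to 900.5 and 442.6 to 612.3 CPM for B cells (3 of 5 tested higher, 1 lower). They were 7.99 to 14.31 and 22.37 to 125.3 CPM for plasma cells (3 of 4 higher), and 6.03 to 73.26 and 17.46 to 104.0 for myeloid cells (1 of 6 higher). They were 10.18 to 18.68 and 43.00 to 58.03 CPM for dendritic cells (4 of 5 higher). For CD4 T and regulatory cells they were 0.858 to 1.95 and 0.191 to 0.447 CPM (0 tested). For NK and gamma delta T cells they were 167.0 to 199.8 and 322.1 to 395.7 CPM (2 of 3 higher). Most of that last sum was Eomes, at 164.4 ± 12.83 and 345.4 ± 31.02 CPM, and Trdc did not pass (10.78 ± 2.52 and 13.00 ± 2.07 CPM). The lower B cell sum rested on Ighm, since the other 6 B cell markers together were higher in CD103Tg. They made 46.04 to 51.33 CPM per B6 library and 119.0 to 138.8 CPM per CD103Tg library. Most of that rise was Cd22 alone, with means of 15.47 ± 1.28 (B6) and 86.97 ± 10.86 CPM (CD103Tg). Erythroid markers (0 of 4 called) reached 55.97 CPM in B6 library 4 and 184.7 CPM in CD103Tg library 4, the 2 libraries that stood apart in the orders above, and were at most 9.66 CPM in the other 6. The 7 CD8 T cell identity genes summed to 7538 to 8693 and 7565 to 8530 CPM, with 1 called lower, Cd8a (1191 ± 31.94 and 1006 ± 43.51 CPM). That list includes Ly6c2 and Cxcr3, genes of the markers used in the sort, so its sum is no independent check of the cells.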

How the data were processed

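Lymph node CD8 T cells were profiled in 8 libraries, 4 per group, made with SMART-Seq v4 and Nextera XT per the labels' protocols, a method without strand or molecular identifiers. The tools were bcl2fastq 2.17, cutadapt 1.18, STAR 2.7.0f and RSEM, and the builds GRCm38 and mm10, per the submitters' processing notes. The authors deposited 1 table of normalized signal, TMM-scaled CPM, for a gene set filtered by a rule not given in the sources. The columns sum to 962335 to 1022065. All 13245 gene IDs matched GENCODE M21. Reads recovered from the smallest steps of the deposited signal are estimated counts, whole for 63.0% to 65.2% of values per library within 0.005 of a read. They served for depth and for voom.

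Genes averaging 1 CPM or more were fitted in limma 3.58.1 (R 4.3.3) on log2(CPM + 1) (lmFit, eBayes with trend, genotype only, two-sided, Benjamini-Hochberg over all genes tested). The pseudocount understates changes of low genes. Python 3.11.15 with numpy 2.4.6, pandas 2.3.3 and scipy 1.17.1 was used for tables and sequence searches, and matplotlib 3.10.9 for figures. The fit was tested on simulated data. Shared sequence was counted as 50-base stretches found in transcripts of other GENCODE genes on either strand.

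The members and gene lists were chosen with earlier results of these data known. Per-library values were set to be given for tested variant genes, for the 2 tested genes with the smallest p in each replication-linked histone type and for called lower genes, with 3 genes named per pathway list, of which 1 gene is not reported here. Values of Hist1h2ae, Hist3h2ba, the Hist2h2aa copies, the untested genes and the named cell type markers were given after they were seen. Of the 18 genes of the processing list, 16 were found by symbol. Same-numbered libraries of the groups deviated together with correlations of 0.22, 0.35, -0.08 and 0.12 for numbers 1 to 4, so the numbers were not taken as pairs. Alternatives were other pseudocounts, filters and scalings, robust eBayes, voom, a replicate block and leaving out libraries. Added after seeing the data were summing near-identical copies, voom without a filter, no filter without CD103Tg library 4, and a wider tolerance for whole reads.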

Additional observations from a re-analysis of the deposited data

Results flagged for a closer look

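The antisense RNA H3f3aos was at 0.651 CPM in CD103Tg library 1, far from the 0.287 to 0.335 CPM of the other 3 CD103Tg libraries and inside the B6 range of 0.461 to 0.69 CPM. It was the 1 group, of 72 groups of 4 libraries checked over the 36 members, in which 1 library stood apart by Dixon's criterion, which chance meets in about 1 in 20 groups.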

How the results depend on the processing

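Of the 9 members called, Hist1h2ap, Hist3h2a, H2afx, H2afj and H2afy were called in the same direction under all 22 alternatives, Hist1h2ae under the 21 and Hist1h1b under the 20 that left it above the filter, and H2afv and H2afz under 17 of 22. Replication-linked genes called higher were 3 as reported and 1 at a minimum mean of 5 CPM, which leaves fewer genes tested. They were 4 with no filter, with voom without a filter and with a replicate block, and 2 to 4 when 1 library was left out. Those called lower were 1 as reported and 2 with no filter, with voom without a filter, with no filter and without CD103Tg library 4, and with a replicate block, and 1 to 2 when 1 library was left out. Variant genes called higher were 5 as reported, 3 to 5 when 1 library was left out and 3 without both libraries numbered 4. Those called lower were 0 as reported, 0 to 1 when 1 library was left out and 1, H3f3a (-0.30, limma adjusted p = 0.0145), without both libraries numbered 4. List genes called lower were 5 as reported, 10 with quantile normalization, 8 with equal totals and 9 without both libraries numbered 4, and 4 to 7 when 1 library was left out. The cause of these changes was not tested, except where fewer genes were tested. H3f3b, not called at 0.02, was at -0.01 with equal totals, -0.00 without both libraries numbered 4, and -0.05 to 0.12 when 1 library was left out, below 0 without B6 library 2 (-0.05), B6 library 4 (-0.01) or CD103Tg library 3 (-0.00). With the replicate block, Hist2h2aa1 (0.40, limma adjusted p = 0.0387) and Hist2h2aa2 (-0.50, limma adjusted p = 0.0226) were also called, and not every library correlated best with its own number. The median log2 fold change of replication-linked genes, -0.18 as reported, was 0.40 at a minimum mean of 5 CPM. It was then the value of Hist2h2aa1, with only Hist1h2ap and Hist3h2a tested beside it. Depth limits the genes near 1 CPM, such as Hist1h1b with 6 to 23 estimated reads per B6 library.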
